A study of Mus musculus with 196 samples.

Results

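Tail skin was compared with the dorsal skin of the same animal in the 14 mice whose dorsal array was labelled as anagen, the phase of the hair cycle in which follicles grow. Mice were chosen by that label alone, and arrays were paired by mouse number. The comparison used 28 arrays from 14 of the 100 mice of the study, 8 females and 6 males, out of 14 anagen dorsal, 85 non-anagen dorsal and 97 tail arrays in all. All were untreated backcross animals aged 8 weeks, born to FVB/N males and to females that came from FVB/N mothers and Mus spretus fathers, so every animal carried its own mixture of the parental genomes. Skin was shaved dorsal skin or tail skin, snap frozen. The 82 mice with a tail array and a dorsal array labelled as non-anagen, 39 females and 43 males from the same cross, served as the reference. Their dorsal skin is called resting below for short. The label says only that it was not in anagen and does not separate rest from regression. No mouse was in both sets. Expression was measured on mouse gene arrays as log2 values, so a difference of 1 is 2-fold, and each group's values are given below as lowest, median and highest.

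Hair follicles pass through growth (anagen), regression and rest. A growing follicle carries a pigmented matrix at its base, from which the shaft and the inner root sheath that moulds it are built. Shaft cells fill with hair keratins and keratin-associated proteins, and sheath cells with their own keratins and trichohyalin. In dorsal skin many follicles grow and rest in step, whereas tail skin holds sparser, larger follicles between epidermal scales. A tail against resting dorsal skin therefore differs both in body site and in hair growth, and a tail against anagen dorsal skin differs in site while both can hold growing follicles.

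All 14 dorsal arrays were in batch 1 and all 14 tail arrays in batch 4, so tissue and batch cannot be told apart in any difference between them. The label was checked with 12 inner root sheath genes. Their mean was 4.90 to 6.33 in the 85 non-anagen dorsal arrays. In the 14 anagen dorsal arrays it ran from 5.94 to 11.3. In 3 of these, from mice 1014, 1020 and 1057, it lay within the non-anagen range, so values without these 3 mice are given below for the hair gene lists and for hair genes whose size or call rests on them. Since they were picked for low hair gene readings in the back, leaving them out lowers the tail to dorsal difference of those genes by construction. To show what an absent transcript reads, Uty, on the Y chromosome, was at 3.01, 3.26 and 3.74 in the 16 female arrays, and Kdm5d at 3.75, 4.43 and 5.17. Low dorsal readings below are therefore near the floor of the arrays. A difference measured against such a reading depends on where each probe set's floor lies, so it is not an exact fold.

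The sex labels were checked with the mean of the Y-linked genes Eif2s3y, Kdm5d and Uty. It was at most 4.09 in the female arrays of the 14 mice. In male tails of the 14 it was 8.68 to 9.14, except for the tail of mouse 1111 at 6.50, below its own back at 7.84. In the 82 mice, the tails of the males 1110 and 1115 read 6.80 and 6.77, also below every male back, the lowest of which was 7.69. Their part in the results was not tested beyond leaving these 3 mice out, which was added after the readings were seen. Without them 625 genes were called higher and 298 lower in tail than in anagen dorsal skin, and 156 had a lower and 1 a higher difference than in the other mice. Lists or genes whose call or count this moves are given where they appear.

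Of 18820 genes, 610 (3.24%) were called higher and 306 (1.63%) lower in tail than in anagen dorsal skin, with an adjusted p under 0.05 and a difference of 1 or more. The called counts of each gene list below are to be read against these 2 shares. The median difference of all genes was 0.01. When each array was shifted to the same median, the median difference was -0.16 and the split was 408 higher and 471 lower, and with quantile normalization it was 412 and 422, so the balance between the directions depends on the scaling. In the 82 mice with resting backs, the tail was called higher for 746 genes (3.96%) and lower for 383 (2.04%). The genes called in both sets of mice numbered 504 higher, which is 82.6% of the 610 and 67.6% of the 746. In the other direction 255 were shared, 83.3% of the 306 and 66.6% of the 383.

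The difference between the 2 sets of mice was tested directly. With 1 spread estimated from both sets together, the tail to dorsal difference was lower by at least 1 in 143 genes (0.760%) and higher in 0 (0%) when the dorsal skin was in anagen. The limma test also found 256 genes (1.36%) with a higher difference that passed on adjusted p whatever its size, and 499 (2.65%) with a lower one. The 14 mice varied far more than the 82 in hair genes, which the shared spread does not allow for. With each set's own spread, in Welch's t-test, 14 genes (0.0744%) passed the adjusted threshold, all among the 143. Without the mice with low Y-linked readings it was 16 genes, 12 of them among the 14. All 143 had an unadjusted p under 0.05 in Welch's test. Unlike limma, that test does not pool the spread across genes. How far this, rather than the larger spread of the 14 mice, lowered the count was not tested. The adjusted p with own spreads is given beside the changes named below. Of the 143, 62 carried a keratin or keratin-associated protein symbol.

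**Figure D1:**
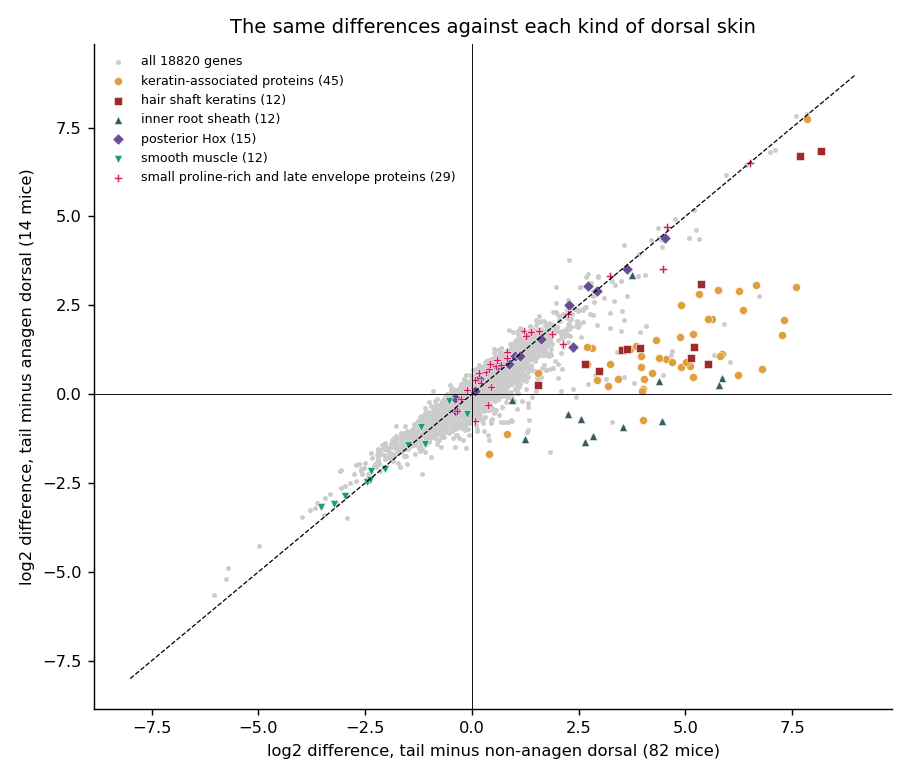
Log2 difference of each of 18820 genes between tail and non-anagen dorsal skin (x axis, 82 mice) and between tail and anagen dorsal skin (y axis, 14 mice), with 6 gene lists in colour, their number of genes in brackets and the line of equal differences dashed. Most keratin-associated proteins, hair shaft keratins and inner root sheath genes lie far below the line (Krtap13 and Tgm3 lie near it), with medians of 4.69, 4.53 and 3.19 on the x axis and 1.00, 1.26 and -0.63 on the y axis, while Hox, smooth muscle and small proline-rich genes lie along it.

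Inner root sheath genes of tails and anagen backs overlapped, and few were called. Of the 12 measured, 11 were called higher in tail against resting dorsal skin, but 1 was called higher and 1 lower against anagen dorsal skin, and their median difference was -0.63 beside 0.01 over all genes. The type II sheath keratin Krt71 was at 7.11, 11.05 and 11.82 in the 14 tails and at 6.84, 10.71 and 12.69 in their anagen backs. Resting backs were at 4.50, 5.29 and 6.52, so all 14 anagen backs exceeded all 82 resting ones, and tails and anagen backs overlapped almost wholly. The difference was 0.26 ± 0.62 (SE, n = 14, adjusted p = 0.735), with a 95% interval of -1.30 to 1.83, against 5.80 in the other 82 mice. That change of -5.53 had an adjusted p of 6.33e-23 with the shared spread and 0.0158 with each set's own.

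Krt25, a type I partner of Krt71 in the sheath, was at 6.89, 10.88 and 11.80 in tails and 7.10, 10.21 and 12.53 in anagen backs. Its difference was 0.44 ± 0.62 (SE, adjusted p = 0.561), and the change from the 82 mice was -5.41 (adjusted p = 1.92e-21, and 0.0163 with own spreads). Krt27, also of the sheath, differed by -0.76 (95% interval -2.40 to 0.89) and its change was -5.21 (0.0316 with own spreads). Tchh, trichohyalin of the sheath and medulla, had medians of 9.70 in tails and 10.96 in anagen backs, a difference of -0.92 (95% interval -2.50 to 0.67) and a change of -4.46 (0.0473 with own spreads). In these 4 genes 6 to 8 of the 14 mice had the higher reading in the tail, and none of the 4 was called in either direction. The 95% intervals use each gene's own spread in the 14 mice and are wider here than limma's SE would give. On that basis the intervals of Krt71 and Krt25 include a difference of 1 in either direction.

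The sheath gene called lower in tail was Tchhl1, a trichohyalin-like protein, with a difference of -1.27 ± 0.51 (SE, adjusted p = 0.0415) against 1.25 in the 82 mice, a change with an adjusted p of 0.179 with own spreads. Its medians were 7.13 in tails and 8.25 in anagen backs. The sheath gene that stayed higher in tail was Tgm3, a transglutaminase that crosslinks sheath and epidermal proteins. It was at 10.88, 11.54 and 11.97 in tails and 6.60, 7.88 and 10.56 in anagen backs, without overlap, a difference of 3.34 ± 0.29 (SE, adjusted p = 7.06e-08).

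Without the 3 mice with low sheath means in the back, 3 of the 12 sheath genes were called lower in tail and the list median was -1.21. Krt71 then differed by -0.59, Krt25 by -0.26, Krt27 by -1.59 and Tchh by -1.61, none of them called, while Tchhl1 at -1.68 and Tgm3 at 3.15 were. Without the mice whose male tails read low in Y-linked genes, 2 of the 12 were called lower. No relation between the back and the tail of a mouse was detected. The sheath mean was highest of all in the back of mouse 1080 (11.3), whose tail was the lowest of all tails (6.11). It was 6.60 in the back of mouse 1039, whose tail was the highest (9.56). Across the 14 mice Pearson's r between tail and dorsal Krt71 was -0.23 (permutation p = 0.444, adjusted p = 0.555 over 4 genes) and Spearman's rho -0.13 (p = 0.647). For Krt25, Krt27 and Tchh r was -0.30, -0.18 and -0.32 (permutation p = 0.324, 0.555 and 0.272). Without the 2 mice farthest from the median in the dorsal level, r was between -0.32 and -0.60.

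**Figure D2:**
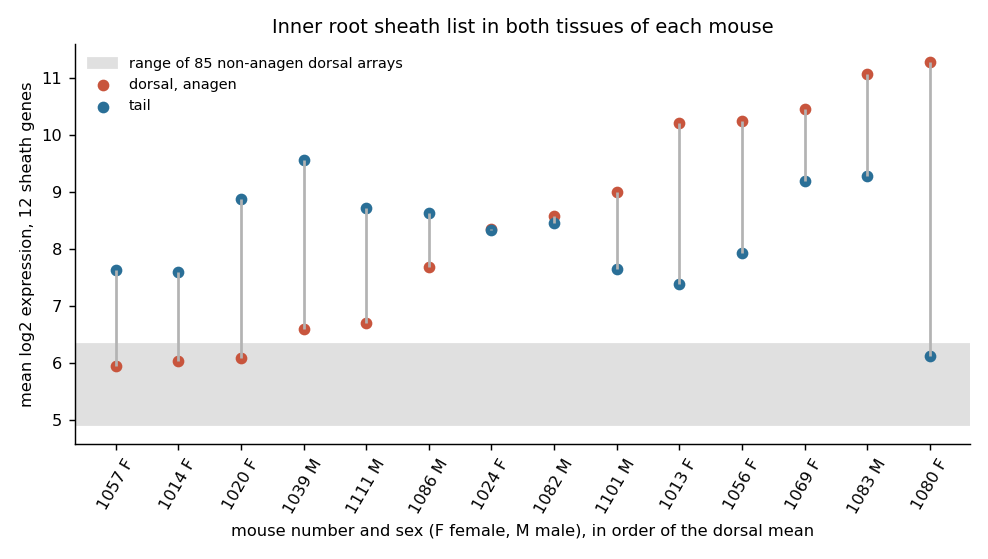
Mean log2 expression of 12 inner root sheath genes in the dorsal and tail array of each of the 14 mice, ordered by the dorsal mean, with the range of the 85 non-anagen dorsal arrays shaded. Dorsal means run from 5.94 to 11.3 and tail means from 6.11 to 9.56, so that the tail is above the back in 6 of the 14 mice.

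Keratin-associated proteins, which form the matrix between keratin filaments of the shaft, followed the same course, with 18 called higher in tail. Of 45 measured, 43 were called higher in tail against resting dorsal skin and 18 against anagen dorsal skin, with 1 lower. Their median difference was 1.00 beside 4.69 in the 82 mice, and the change was called in 43 with the shared spread and in 8 with each set's own. Leaving out the 3 mice with low sheath means gave 12 higher, 2 lower and a median of 0.48, and leaving out those with low Y-linked readings 14, 2 and 0.77. Krtap15 was at 3.88, 11.03 and 11.97 in tails and 4.38, 10.54 and 12.31 in anagen backs. Both groups thus spanned nearly the whole scale, and the difference was 0.71 ± 0.82 (SE, adjusted p = 0.474, 95% interval -1.36 to 2.78). Resting backs were at 3.24, 4.16 and 6.35, and the change was -6.09 (adjusted p = 8.35e-19, and 0.0414 with own spreads). The single lowest tail, at 3.88, was again that of mouse 1080.

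Others kept a called difference at a smaller size. Krtap7-1 was at 11.02, 12.65 and 12.93 in tails and 5.36, 11.12 and 13.12 in anagen backs, a difference of 2.10 ± 0.55 (SE, adjusted p = 0.00413) against 7.32 in the 82 mice. Krtap8-1 differed by 1.66 (adjusted p = 0.0217) against 7.26, and Krtap6-1 by 3.02 (adjusted p = 0.000527) against 7.58. The changes of these 3 had adjusted p-values of 0.0158, 0.0158 and 0.0414 with own spreads. Without the 3 mice with low sheath means Krtap7-1 differed by 1.25 and Krtap6-1 by 2.05, and Krtap8-1 was no longer called at 0.89 (adjusted p = 0.203). S100a3, a calcium-binding protein of the hair cuticle, was the only gene among the 14 called with own spreads that was neither a keratin, trichohyalin nor in the stretch of keratin-associated genes on chromosome 16. It differed by 1.31 ± 0.37 (SE, adjusted p = 0.00617) against 3.93 (adjusted p of the change 0.0469 with own spreads), and was named after its values were seen. It was not called without these 3 mice (0.98, adjusted p = 0.0554).

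Of 12 hair shaft keratins, all were called higher in tail against resting dorsal skin and 5 against anagen dorsal skin, namely Krt84, Krt36, Krt39, Krt33b and Krt35, with a list median of 1.26 beside 4.53. With the shared spread, 7 were no longer called and had changed, 4 kept a smaller difference and 1, Krt36, had no called change. Krt31, a cortex keratin, was at 6.02, 9.86 and 11.69 in tails and 5.54, 8.55 and 12.04 in anagen backs, a difference of 1.32 ± 0.67 (SE, adjusted p = 0.104, 95% interval -0.37 to 3.02). Its change of -3.88 was called with the shared spread but not with own spreads (adjusted p = 0.119). Krt39, another type I hair keratin, was at 8.51, 9.69 and 10.82 in tails and 4.19, 6.08 and 10.15 in anagen backs, higher in tail in 12 of 14 mice. Its difference was 3.09 ± 0.53 (SE, adjusted p = 0.000111), and its change of -2.29 had an adjusted p of 0.253 with own spreads. Krt33b differed by 1.25 (adjusted p = 0.0234). Without the 3 mice with low sheath means, Krt84 (6.34), Krt36 (6.43) and Krt39 (2.49) were called, the median was 0.72, and Krt31 differed by 0.58. Without those with low Y-linked readings Krt35 lost its call (1.25, adjusted p = 0.0758).

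Krt84, a type II hair keratin, behaved differently from Krt31. It was at 12.78, 13.05 and 13.15 in tails and 3.80, 5.59 and 9.21 in anagen backs, so the lowest tail lay above the highest back by over 3 log2 units. The difference was 6.84 ± 0.43 (SE, adjusted p = 1.68e-09) against 8.18 in the 82 mice. The change of -1.34 had an adjusted p of 4.39e-05 with the shared spread and 0.416 with own spreads. The 5 backs with Krt84 above 7, from mice 1013, 1056, 1069, 1080 and 1083, were the 5 with the highest sheath means. Krt36, a type I hair keratin, was at 12.15, 12.50 and 12.63 in tails and 4.58, 5.43 and 8.26 in anagen backs, again without overlap. Its difference was 6.69 ± 0.27 (SE, adjusted p = 2.99e-12). In the row of type I hair keratins on chromosome 11, Krt36 lies beside Krt35, which differed by 1.31 (adjusted p = 0.0484).

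**Figure D3:**
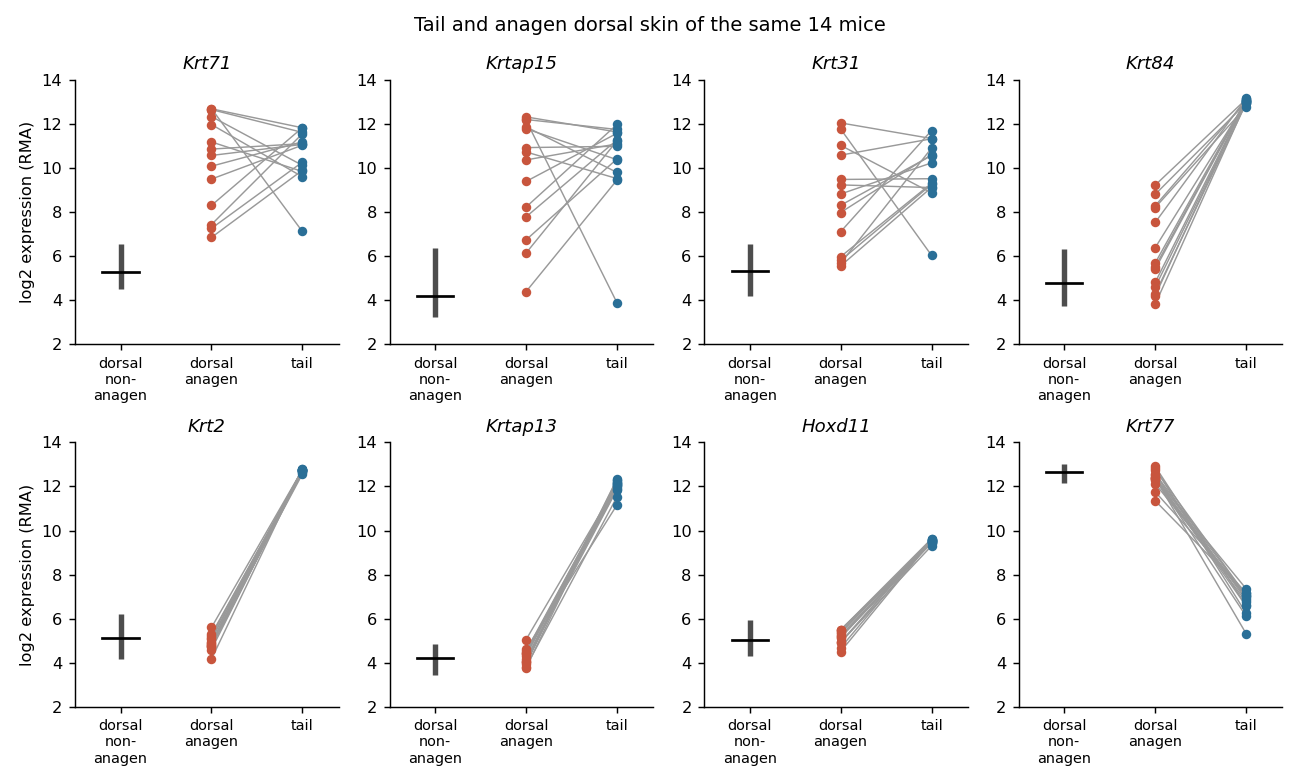
Log2 expression of 8 genes in the anagen dorsal skin (red) and tail skin (blue) of the same 14 mice, with lines joining the arrays of a mouse, and the range of 82 non-anagen dorsal arrays as a dark bar with a tick at the median. Lines cross for Krt71, Krtap15 and Krt31, whereas for Krt84, Krt2, Krtap13 and Hoxd11 all 14 run upward to tail and for Krt77 all 14 run downward, without overlap between the groups.

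A contrast within one gene family lay in a stretch of chromosome 16 that holds keratin-associated protein genes and unnamed neighbours, and was noticed after the values were seen. Of 28 measured genes in it, all were called higher in tail against resting dorsal skin. Against anagen dorsal skin 5 kept a difference whose change was not called, 10 kept a smaller one and 13 were no longer called. These classes use the shared spread, under which 23 of the 28 had a called change, and with own spreads 9 had. Without the 3 mice with low sheath means 14 of the 28 were called higher against anagen dorsal skin, and without those with low Y-linked readings 15, the same number as with all mice. The 5 were 2310079G19Rik, 2310061N02Rik, Krtap13, 2310034C09Rik and 2310057N15Rik, and the last 3 of these follow each other in the gene order. Next to them on either side lie Krtap13-1 and Krtap14, which were in the other classes. The bases upstream of the 3 neighbouring genes are shown here, followed by those of Krtap13-1 and of Krtap15, so that the tail genes can be read against genes of the stretch that anagen backs also held. Each is 250 bases ending at the annotated start, 5′ to 3′ on the gene's strand, from RefSeq (GRCm38.p6), and is the reference sequence, not that of these animals. Capitals mark runs of at least 12 bases that all of the first 3 share.

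2310034C09Rik (chr16:88758597-88758846, plus strand): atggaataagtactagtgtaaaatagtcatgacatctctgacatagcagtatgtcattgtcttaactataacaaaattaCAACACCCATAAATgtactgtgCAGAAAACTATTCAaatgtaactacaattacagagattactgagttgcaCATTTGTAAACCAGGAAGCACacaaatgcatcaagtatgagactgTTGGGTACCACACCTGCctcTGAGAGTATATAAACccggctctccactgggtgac

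Krtap13 (chr16:88751629-88751878, minus strand): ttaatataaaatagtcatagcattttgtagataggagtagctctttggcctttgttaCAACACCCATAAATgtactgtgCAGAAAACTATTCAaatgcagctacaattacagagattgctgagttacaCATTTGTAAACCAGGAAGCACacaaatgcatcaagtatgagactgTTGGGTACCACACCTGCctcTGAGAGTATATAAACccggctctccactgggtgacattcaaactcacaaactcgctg

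2310057N15Rik (chr16:88774207-88774456, minus strand): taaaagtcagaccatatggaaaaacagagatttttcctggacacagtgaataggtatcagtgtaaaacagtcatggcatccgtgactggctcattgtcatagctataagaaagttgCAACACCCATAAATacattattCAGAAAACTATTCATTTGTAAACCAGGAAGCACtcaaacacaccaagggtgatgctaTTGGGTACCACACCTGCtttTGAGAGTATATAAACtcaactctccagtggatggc

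Krtap13-1 (chr16:88728612-88728861, plus strand): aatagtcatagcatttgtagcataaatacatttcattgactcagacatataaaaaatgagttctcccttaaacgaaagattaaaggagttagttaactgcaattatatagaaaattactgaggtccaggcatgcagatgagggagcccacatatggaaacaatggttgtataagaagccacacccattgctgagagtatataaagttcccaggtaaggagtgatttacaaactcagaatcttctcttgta

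Krtap15 (chr16:88828759-88829008, plus strand): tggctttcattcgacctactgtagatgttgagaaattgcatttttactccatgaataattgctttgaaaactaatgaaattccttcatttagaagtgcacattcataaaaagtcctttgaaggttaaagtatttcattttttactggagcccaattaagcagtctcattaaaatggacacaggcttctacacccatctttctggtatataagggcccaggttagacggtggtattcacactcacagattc

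The first 3 upstream sequences shared 5 such runs in the same order: CAACACCCATAAAT, CAGAAAACTATTCA, CATTTGTAAACCAGGAAGCAC, TTGGGTACCACACCTGC and TGAGAGTATATAAAC. In 2310057N15Rik the second and the third overlap. Searched on both strands in the same 250 bases of 32851 annotated genes, each of the first 3 runs was found only upstream of these 3 genes (0.00913%), and the last 2 also upstream of Gm5965 (0.0122%), which was not analysed here. Krtap13-1, Krtap15, 2310079G19Rik and 2310061N02Rik held none of the 5 whole, so the runs were not shared by all 5 genes whose change was not called. Krtap13-1 did hold 14 of the 15 bases of the last run in a row, and no other match to a run in these 4 genes was longer than 9 bases. Over gapped alignments, identity was 76.8% between 2310034C09Rik and Krtap13, 58.2% and 56.6% between 2310057N15Rik and these, and 48.4% to 56.3% between the first 3 genes and the last 2. All 5 sequences held the motif TATATAA or its reverse, which 3.04% of the 32851 hold. These matches describe the reference sequence, and whether any of them bears on expression was not tested.

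Krtap13 was at 11.16, 12.07 and 12.33 in tails and 3.75, 4.24 and 5.04 in anagen backs, which were no higher than resting backs at 3.44, 4.19 and 4.83 except in 1 array. The difference was 7.74 ± 0.13 (SE, adjusted p = 2.38e-18) against 7.84 in the 82 mice. Its neighbour 2310034C09Rik was at 9.57, 11.09 and 11.70 in tails and 3.90, 4.11 and 4.80 in anagen backs, a difference of 6.82 ± 0.15 (SE, adjusted p = 2.52e-16). For 2310057N15Rik, with 10.15, 11.19 and 11.56 against 2.84, 3.09 and 4.36, it was 7.89 ± 0.13 (SE, adjusted p = 2.38e-18). These 3 differences were 7.74, 6.87 and 7.92 without the 3 mice with low sheath means. Anagen backs that held up to 12.31 of Krtap15 thus read these 3 genes near the floor.

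On either side the values were mixed. Krtap13-1 had a lowest value of 8.46 and a median of 10.16 in tails and was at 4.35, 6.90 and 10.77 in anagen backs, a difference of 2.94 ± 0.56 (SE, adjusted p = 0.00029) against 5.77, or 2.28 without the 3 mice with low sheath means. Krtap14 was at 4.66, 8.27 and 10.45 against 4.77, 7.96 and 11.20, a difference of 0.10 (95% interval -1.67 to 1.86) against 3.99. Further out, 2310079G19Rik differed by 6.88 ± 0.22 (SE, adjusted p = 6.69e-14) and 2310061N02Rik by 4.61 ± 0.29 (SE, adjusted p = 1.71e-09). How alike the transcripts of these genes are, and how far their probes also bind a neighbour's transcript, was not tested.

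**Figure D4:**
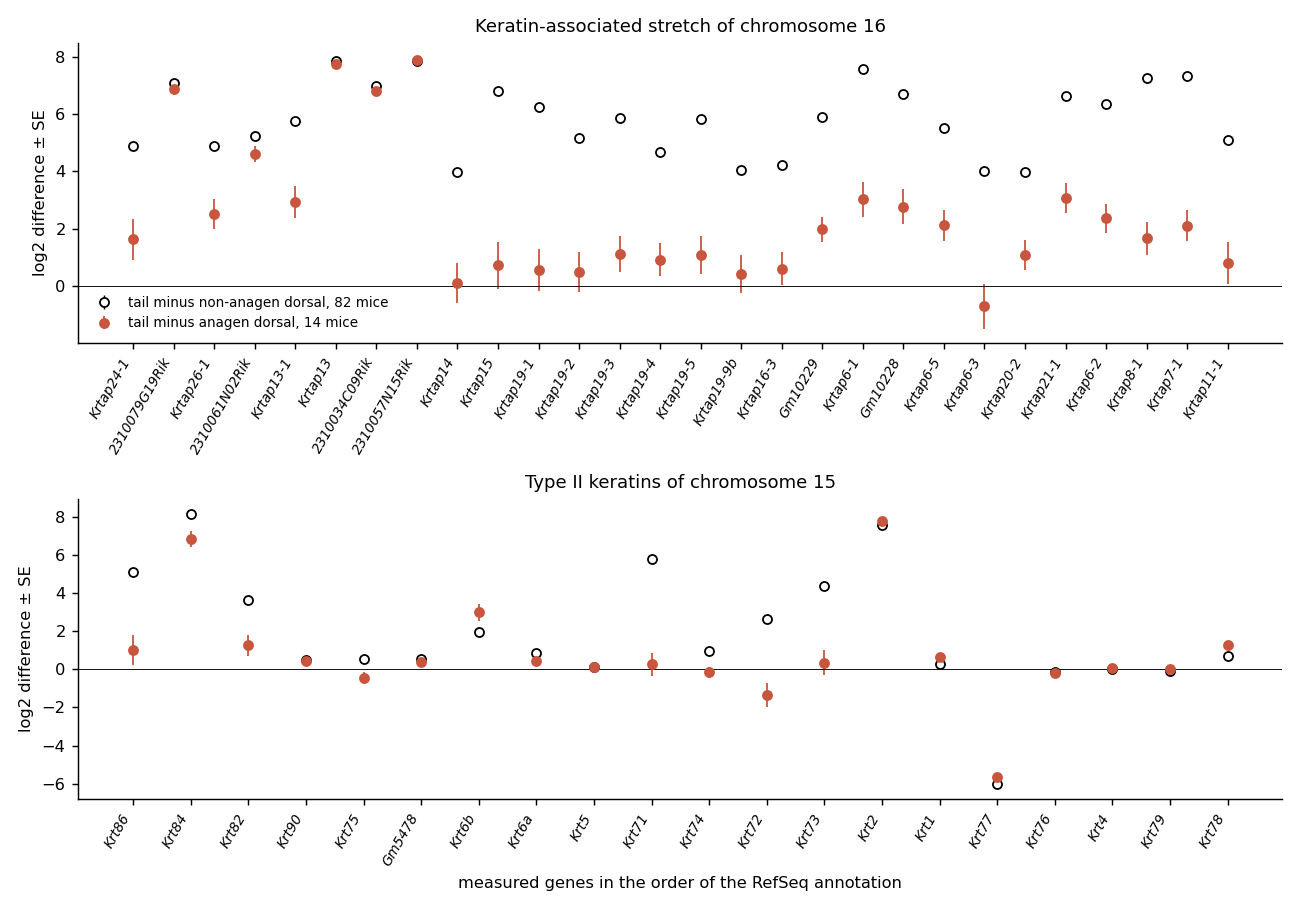
Log2 difference ± SE of tail against non-anagen dorsal skin (open, 82 mice) and against anagen dorsal skin (red, 14 mice) for the measured genes of the chromosome 16 stretch and of the type II keratins on chromosome 15, in the order of the RefSeq annotation. Krtap13, 2310034C09Rik and 2310057N15Rik keep differences of 6.82 to 7.89 beside Krtap14 at 0.10, and Krt84 and Krt2 keep 6.84 and 7.82 beside Krt86 at 1.03 and Krt73 at 0.36.

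Of 17 regulators of the hair matrix and shaft, 5 were called higher in tail and 0 lower, against 10 and 0 in the 82 mice, with a median of 0.59. Leaving out the 3 mice with low sheath means left 4 called and a median of 0.48, with Foxn1 at 1.85 and Hoxc13 at 1.11. Foxn1, the factor whose loss gives nude mice, was at 8.88, 9.63 and 9.88 in tails and 5.62, 7.58 and 9.58 in anagen backs. Its difference was 1.93 ± 0.24 (SE, adjusted p = 3.31e-06), with the tail higher in 14 of 14 mice. Hoxc13, a regulator of hair keratin genes, differed by 1.32 ± 0.27 (SE, adjusted p = 0.000538) against 2.37, a change of -1.05 with an adjusted p of 4.11e-06, and of 0.294 with own spreads. Dlx2, Elf5 and Trps1, the other factors called, differed by 1.28, 1.25 and 1.38. Msx2, a homeobox factor of matrix and shaft, was at 6.82, 7.64 and 8.56 against 6.34, 7.02 and 9.40, and its difference of 0.15 (95% interval -0.54 to 0.84) was not called. Its sign turned under both other scalings, and its change of -1.12 had an adjusted p of 0.283 with own spreads.

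Signals that act on the growing follicle gave few calls, beside 3.24% of all genes called higher and 1.63% lower. Of 10 hedgehog genes 0 were called in either direction, and 1 was called higher without the mice with low Y-linked readings. The ligand Shh was at 4.57, 4.87 and 5.40 in tails and 4.11, 5.37 and 6.42 in anagen backs, a difference of -0.45 (adjusted p = 0.0466), below the size required. Of 33 Wnt genes 2 were called higher and 1 lower: the ligand Wnt4 by 1.60, the secreted modulator Sfrp4 by 2.10, and the receptor Fzd2 by -1.19. Of 19 BMP and TGF-beta genes, the BMP antagonist Grem1 was called, with a difference of -1.03 (-0.98 and not called without the mice with low Y-linked readings). Of 16 dermal papilla genes Vcan was called higher (1.03, but 0.86 and not called without the 3 mice with low sheath means) and Lepr lower (-1.17). Without the mice with low Y-linked readings 2 of the 16 were called higher and 1 lower. The mitotic genes gave 1 call of 20, Bub1 at 1.21, although 17 passed the adjusted threshold upward at any size, beside 31.6% of all genes.

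Of 16 stem cell markers of the resting follicle, 3 were called lower in tail and 0 higher, with a median of -0.47. The same counts and a median of -0.52 were found without the 3 mice with low sheath means, with Krt15 at -1.09 and Lhx2 at -1.55. Under both other scalings 6 were called lower, with medians of -0.63 (same median) and -0.68 (quantile normalization). Krt15 was at 9.21, 10.17 and 10.86 in tails and 10.51, 11.41 and 12.14 in anagen backs, a difference of -1.28 ± 0.15 (SE, adjusted p = 2.54e-06), lower in tail in 14 of 14 mice. Lhx2 was at 7.52, 7.80 and 8.25 against 8.40, 9.45 and 10.33, without overlap, a difference of -1.54 ± 0.11 (SE, adjusted p = 4.87e-09). Lgr5 differed by -1.22 and Lgr6 by -0.51, the latter not called. As in any bulk tissue, fewer cells of a type and less RNA per cell cannot be told apart.

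Most genes of pigment synthesis were called higher in tail. Of 13, 9 were called higher and 0 lower (8 and 0 without the 3 mice with low sheath means), against 10 and 0 in the 82 mice, with medians of 1.41 and 1.76. The list mean was higher in tail in 13 of 14 mice. Tyr, the enzyme that starts melanin synthesis, was at 6.16, 6.96 and 8.16 in tails and 3.74, 4.62 and 6.79 in anagen backs, a difference of 2.27 ± 0.26 (SE, adjusted p = 1.63e-06). Tyrp1, which acts after it, was at 9.09, 9.72 and 10.72 against 5.60, 6.66 and 9.35, a difference of 2.76 ± 0.30 (SE, adjusted p = 8.71e-07). Of the anagen backs, 4 exceeded all resting backs in each of these genes, so most did not. Slc24a5, an exchanger of the pigment granule, was the only member whose groups did not overlap, beside 3.05% of all genes with the tail higher. It was at 7.16 to 8.67 in tails against 4.49 to 7.16 in anagen backs, so the groups all but touched. Its difference was 2.59 ± 0.22 (SE, adjusted p = 5.95e-08).

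Some keratins known from the epidermis between follicles differed between tail and back in these arrays of whole skin. Of 10 interfollicular keratins 2 were called higher and 1 lower. Krt2, a keratin of upper epidermal layers, was at 12.56, 12.74 and 12.80 in tails and 4.16, 4.87 and 5.60 in anagen backs. Its difference of 7.82 ± 0.09 (SE, adjusted p = 3.64e-20) changed by 0.23 from that in the 82 mice (adjusted p = 0.366, and 0.497 with own spreads). Krt77, another type II keratin of the epidermis and 2 measured genes away from Krt2 in the gene order, was at 5.32, 6.90 and 7.36 in tails and 11.35, 12.38 and 12.91 in anagen backs. Its difference was -5.64 ± 0.18 (SE, adjusted p = 1.05e-13). Krt1 and Krt10, the general keratins of differentiating epidermis, differed by 0.67 and 0.12. Krt78, a type II keratin, was called higher in tail by 1.3. Krt24, a type I keratin that was not among the 10, differed by 4.68, without overlap.

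Small proline-rich and late envelope proteins, which are crosslinked into the cornified layer, gave 14 called higher and 0 lower of 29. Sprr2b was at 11.23, 11.84 and 12.21 in tails and 4.46, 5.29 and 6.12 in anagen backs, a difference of 6.49 ± 0.15 (SE, adjusted p = 5.79e-16). Sprr2d differed by 4.70, Sprr1b by 3.52 and Sprr2a1 by 3.33. Of 17 other cornified envelope and barrier genes 5 were higher and 2 lower: Rptn, a filament-binding envelope protein, by 2.41, and Flg2, a filaggrin relative, by -1.85.

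Keratinocyte stress and hyperproliferation genes gave 13 called higher of 16, with a median of 1.83 beside 1.62 in the 82 mice. Il1f6, a cytokine of the interleukin 36 group, was at 8.59, 10.57 and 11.40 in tails and 5.20, 6.07 and 7.15 in anagen backs, a difference of 4.20 ± 0.20 (SE, adjusted p = 3.64e-11). Defb3, an antimicrobial peptide, ranged from 5.44 to 12.31 in tails, a far wider spread than in backs (4.68 to 5.95), and differed by 3.77 ± 0.48 (SE, adjusted p = 5.07e-06). Protease inhibitors of the Serpinb group had some of the largest differences: Serpinb3d at 6.15, Serpinb13 at 5.18 and Serpinb3a at 4.92, each without overlap. Olah, a thioesterase of fatty acid synthesis, was at 10.37, 10.81 and 11.14 against 3.66, 4.33 and 4.87, a difference of 6.44 ± 0.10 (SE, adjusted p = 7.07e-19).

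Hox genes, which record position along the body axis, differed by site in both sets of mice. Of 15 posterior Hox genes, 9 were called higher and 0 lower, the same counts as in the 82 mice, and 8 had groups that did not overlap, beside 3.05% of all genes. Hoxd11 was at 9.30, 9.53 and 9.62 in tails and 4.50, 5.18 and 5.50 in anagen backs, a difference of 4.38 ± 0.09 (SE, adjusted p = 6.19e-17) against 4.52. Hoxc12 differed by 3.52 ± 0.12, Hoxa9 by 3.06 ± 0.17 and Hoxd10 by 2.92 ± 0.10 (SE). Of 21 anterior and central Hox genes 1 was higher, Hoxd8 by 1.76, and 4 were lower. Hoxc8 was at 5.84, 6.08 and 6.54 in tails and 7.98, 8.57 and 9.13 in backs, a difference of -2.44 ± 0.10 (SE, adjusted p = 2.63e-12). Of the posterior genes only Hoxc13 was called as changed between the sets of mice, with the shared spread.

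Many muscle genes were called lower in tail. Of 12 smooth muscle genes 9 were called lower and 0 higher, and 6 did not overlap, beside 0.829% of all genes. Myh11, the smooth muscle myosin, was at 5.57, 6.23 and 7.17 in tails and 7.82, 9.50 and 10.27 in anagen backs, a difference of -3.09 ± 0.18 (SE, adjusted p = 8.55e-10). Des and Cnn1, proteins of the contractile apparatus, differed by -3.18 and -2.87. Of 23 skeletal muscle genes 11 were called lower, with a median of -1.46, against 19 in the 82 mice. Without the mice with low Y-linked readings the 11 became 7, and without those with low sheath means 14. Myh4, a fast skeletal myosin, was at 3.96, 4.28 and 4.55 in tails but ranged from 4.29 to 11.02 in backs, a difference of -3.47 ± 0.50 (SE, adjusted p = 2.14e-05). The skeletal muscle mean ran from 5.13 to 9.43 in backs and was higher in tail in 4 of 14 mice, so muscle transcripts varied from mouse to mouse. Their part in the other differences was not tested.

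Called immune genes of the T cell and MHC class II lists were lower in tail. Of 14 T cell genes 7 were called lower and 0 higher. Cd3g, a chain of the T cell receptor complex, was at 5.34, 5.98 and 6.50 in tails and 7.53, 9.60 and 10.21 in anagen backs, a difference of -3.27 ± 0.20 (SE, adjusted p = 1.00e-09). Cd7 differed by -3.19 and Cd3e by -2.10, both without overlap. Cd207, langerin of Langerhans cells, differed by -1.43 ± 0.19 (SE, adjusted p = 9.35e-06), the only call among 14 Langerhans cell and macrophage genes. Of 7 genes of MHC class II presentation 5 were lower, with H2-Ab1 at -1.38 and Cd74, the invariant chain, at -1.28. Ifitm6, of the interferon-induced transmembrane family, was at 3.76, 4.12 and 5.44 against 6.55, 9.97 and 10.58, a difference of -5.19 ± 0.26 (SE, adjusted p = 5.87e-11), while the other 6 measured members were not called. Of 18 chemokines 4 were lower, the largest being Cxcl9 at -2.17. Interferon response genes gave 3 of 17 lower, with Usp18 at -2.25.

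Of the 15 genes furthest below, those outside the lists were Mrgprb3, a receptor of the Mas-related family, at -4.28, F830045P16Rik at -4.89, Tspan8, a tetraspanin, at -3.45, AY036118 at -3.39, Clca3a1 at -3.08, Vnn1, an ectoenzyme that splits pantetheine, at -3.08 and H2-Q6, an MHC class I gene, at -2.91. Except for H2-Q6, tails and anagen backs did not overlap in any of these 7, beside 0.829% of all genes with the tail lower. The 7 were picked for large differences, which makes overlap unlikely by that choice alone. In the 82 mice the same genes differed by between -3.16 and -5.72, and the changes were all smaller than 1.

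Of 17 white adipocyte genes 3 were called lower in tail and 0 higher, against 0 in either direction in the 82 mice, but the change itself was not called for any. Fabp4, a fatty acid carrier of adipocytes, was at 7.42, 8.04 and 9.25 in tails and 7.47, 9.18 and 10.63 in anagen backs, a difference of -1.15 ± 0.27 (SE, adjusted p = 0.00177). Its change of -1.07 had an adjusted p of 0.0703, and of 0.303 with own spreads. In the 11 mice left without the low sheath means, 6 of the 17 were called lower. Aqp7, a glycerol channel, and the hormone Lep differed by -1.22 and -1.15. Adipoq, the hormone adiponectin, was just short of the required size at -0.97. The adipocyte mean was 7.56, 8.02 and 8.53 in tails and 7.32, 8.23 and 9.14 in anagen backs, and its part in the other differences was not tested.

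Of 20 tendon, cartilage and bone genes 6 were called higher and 0 lower. Prg4, lubricin, was at 4.88, 8.84 and 11.14 in tails and 3.95, 4.13 and 5.20 in backs, a difference of 4.39 ± 0.41 (SE, adjusted p = 1.58e-07). Chad, a cartilage matrix protein, ranged from 5.07 to 11.36 in tails and differed by 3.32, and Fmod, a collagen-binding proteoglycan, by 2.45. Both Prg4 and Chad thus varied widely among tails and hardly among backs. Of 19 dermal matrix genes Lox, which crosslinks collagen and elastin, and Col14a1 were higher, by 1.85 and 1.47. Mast cell proteases Tpsab1 and Tpsb2 were higher by 1.86 and 1.19, 2 calls of 14. Among 12 blood endothelial, 7 B cell and 6 Schwann cell genes 0 were called, as in the 82 mice. On adjusted p alone, whatever the size, limma found 5, 2 and 2 of these lower, beside 23.5% of all genes.

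Other lists gave few calls, beside 3.24% of all genes called higher and 1.63% lower. Of 14 clock genes 3 were higher, with the repressor Bhlhe40 at 2.17, and 13 passed upward at any size, beside 31.6% of all genes. Immediate early genes gave 2 of 15, Fosb at 1.78 and Fos at 1.27. Cholesterol synthesis gave 4 of 18, led by Idi1 at 1.28. Sebaceous gland genes split, with Elovl3 at 1.19 and Awat2 at -1.54. Of 9 neutrophil genes 3 were higher, Cxcr2 at 1.96, S100a9 at 1.85 and S100a8 at 1.81, and Mpo was lower at -1.33; keratinocytes also make S100a8 and S100a9. Brown adipocyte genes gave Ppargc1a and Slc27a2 lower, at -1.41 and -1.26. The 8 companion layer and outer root sheath genes gave 2 higher, Krt6b at 3.00 and Krt16 at 2.21, both also in the stress list. Regional T-box and related factors gave 0 of 18, and 2 lower, Tbx15 and Zic1, without the 3 mice with low sheath means. With all 14 mice, 2 were also called lower under each of the other scalings. Clock genes gave 5 higher without the 3 mice with low sheath means.

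**Figure D5:**
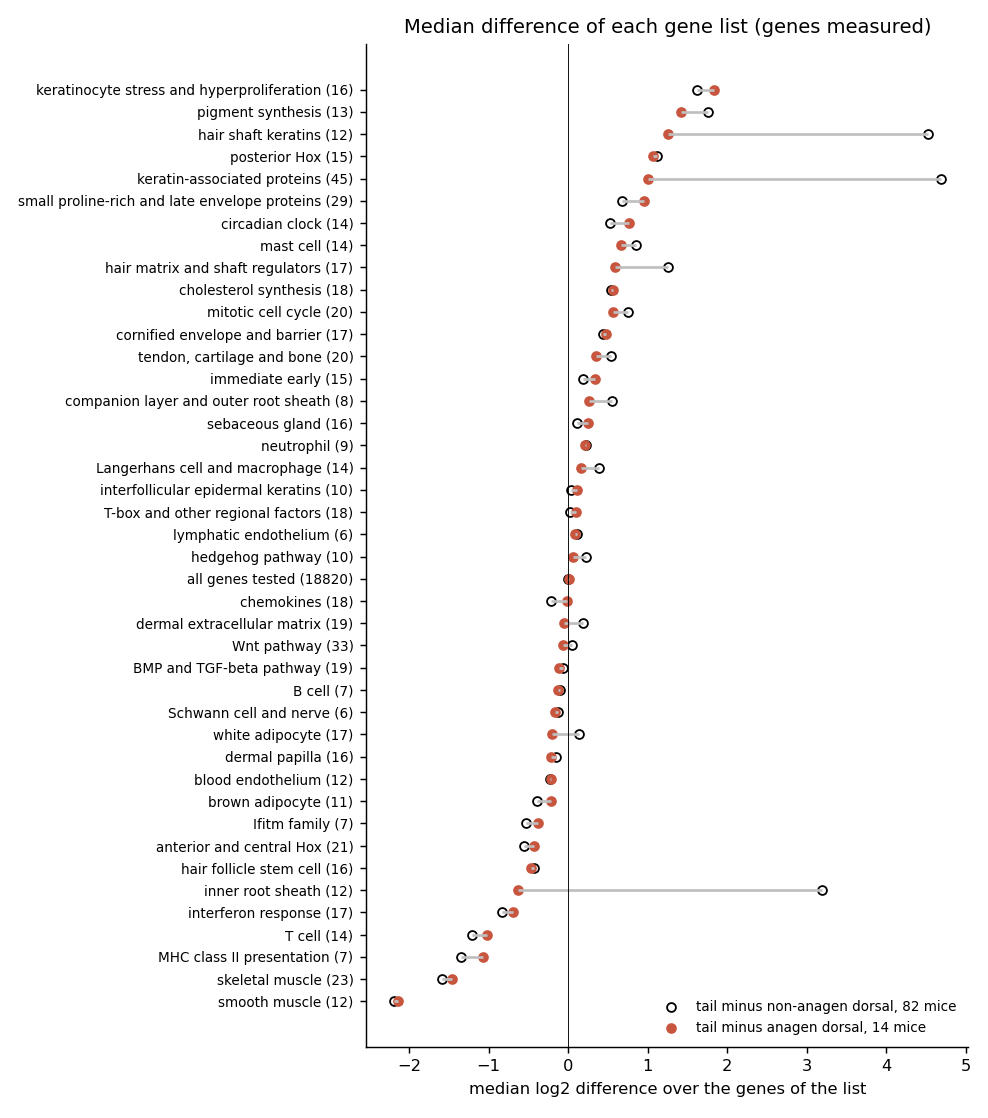
Median log2 difference of each gene list with at least 5 measured genes, for tail against anagen dorsal skin (red, 14 mice) and against non-anagen dorsal skin (open, 82 mice), with the number of genes in brackets. The hair shaft, keratin-associated and inner root sheath lists move from 4.53, 4.69 and 3.19 to 1.26, 1.00 and -0.63, while the smooth muscle list stays at -2.20 and -2.14 and the posterior Hox list at 1.12 and 1.07.

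A small set of genes was lower in tail only against anagen dorsal skin. With the shared spread 8 genes (Car6, Cmah, Gabrp, Kcne1, Krtap31-1, Slc9a2, Stox1 and Trpm6) were called lower in the 14 mice, not called in the 82 and called as changed. With own spreads 0 of them were called as changed, and their unadjusted p-values lay between 0.00132 and 0.0226. Krtap31-1 was at 3.53, 4.25 and 6.42 in tails and 3.83, 5.54 and 9.06 in anagen backs, a difference of -1.68 ± 0.44 (SE, adjusted p = 0.00372). Kcne1, a potassium channel subunit, ran from 3.98 to 5.02 in tails and from 4.55 to 9.06 in anagen backs, a difference of -1.51 ± 0.40 (SE, adjusted p = 0.00453), and was lower in tail in 14 of 14 mice. In both, the anagen backs were spread over several log2 units and reached well above the tails. The count depended on single mice: it was 2 without mouse 1080 and 24 without the 3 mice with low sheath means.

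Of the 746 genes called higher in tail against resting dorsal skin, 469 were called against anagen dorsal skin with no called change, 35 kept a smaller difference, 80 were no longer called and changed, and 161 were not called without a called change. The count of 80 was 53 without mouse 1080 and 99 without the 3 mice with low sheath means, and 8 with own spreads. Genes of the 80 that carry no keratin name included Gprc5d, an orphan receptor of the cortex, and Crnn, cornulin. Crnn was at 5.38, 7.75 and 9.22 in tails and 4.96, 8.61 and 11.46 in anagen backs, a difference of -0.78 (95% interval -2.52 to 0.96) against 3.27. Both were named after their values were seen.

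Sex was tested within the 14 mice. The tail to dorsal difference was called higher in females than in males for 9 genes (0.0478%) and lower for 0, with 2445 genes at an unadjusted p under 0.05. Lox differed by 2.61 in 8 females and 0.83 in 6 males, a difference of 1.77 (limma adjusted p = 0.0455). After a shift of all arrays to one median, 2 genes were called. Without the male mouse 1111, 4 genes were higher, 2 of them among the 9 (Aldh1l2 and Meg3), and 3 were lower, the Y-linked Eif2s3y, Kdm5d and Uty. Lox then differed by 1.71 (limma adjusted p = 0.0906) and was not called. The 3 backs with low sheath means were all from females, and their part in this result was not tested.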

How the data were processed

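The authors deposited log2 values from RMA, per the submitters' processing notes, for 35556 probe sets. The sources used here give neither the RMA version nor whether both tissues were normalized together. Probe sets with 1 annotated gene (21218) gave 18820 genes, and 1386 genes with several were taken from the set with the highest mean. Within-mouse differences, tail minus dorsal, were tested against 0 with limma 3.58.1 (R 4.3.3) in 14 mice and in 82 mice, and between these sets, and p-values were adjusted over all genes (Benjamini-Hochberg). Calls needed an adjusted p under 0.05 and a log2 difference of 1 or more. Arrays are paired because the labels give the same mouse number. Same-mouse deviations had a median correlation of 0.108 and a lowest of -0.296, beside a median of 0.00255 between different mice. In 3 of 14 mice the tail correlated best with its own back, so the values themselves do little to establish the pairing. The number of arrays limits the precision. The scripts were tested on simulated data.

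Members and gene lists were chosen with earlier results of these data known. Named genes were the 15 largest called differences each way, the 10 largest changes each way, the 4 most different members of each list, and a fixed set of hair, skin and Hox genes. Genes beyond that rule, such as those beside Krtap13, Krt35, Krt73, Krt86, Elf5 and the 8 genes called only against anagen skin, were named after their values were seen. Alternatives were other scalings, a filter on low values, the mean of probe sets, no pairing, sex, other variance models and left-out mice. Separate spreads for the 2 sets of mice, by Welch's t-test without limma's pooling across genes, were added after the larger spread of the 14 mice was seen. Leaving out 3 mice whose male tail arrays read low in Y-linked genes was added after those readings were seen. Ddx3y was not analysed here.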

Additional observations from a re-analysis of the deposited data

Results flagged for a closer look

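The tail to dorsal difference was lower in mice with anagen backs for 143 genes, by limma's test between the 14 and the 82 mice with a shared spread. Among the named genes, the change was -6.09 for Krtap15, -5.70 for Krtap19-1, -5.60 for Krtap8-1, -5.53 for Krt71, -5.41 for Krt25, -5.22 for Krtap7-1, -5.21 for Krt27, -4.74 for both Krtap19-3 and Krtap19-5, and -4.46 for Tchh; these 10 also passed with each set's own spread. It was -5.15 for Gm11559, -3.88 for Krt31, -1.34 for Krt84, -1.12 for Msx2 and -1.05 for Hoxc13, which did not pass with own spreads.

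The difference was higher in females than in males for 9 genes among the 14 mice. For Lox this sex difference was 1.77. Without mouse 1111, whose tail read low in Y-linked genes, 4 genes were higher and Lox was not among them (1.71, limma adjusted p = 0.0906).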

How the results depend on the processing

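Shifting arrays to the same median gave 471 genes lower in tail against anagen skin, 491 higher and 626 lower against non-anagen skin, 294 higher and 401 lower called in both sets with no called change, 4 with opposite calls, 1 with a higher difference in the 14 mice, and 2 differing by sex. Quantile normalization gave 1 higher and 2 opposite, and the filter on low values 1 higher and 4 lower only against anagen skin. Without the replicate block (no pairing by mouse) 2 genes had opposite calls, and no other count moved by over 1.5 times. A trend in the variance with robust fitting left 0 opposite. Own spreads left 14 changed genes, with 6 reduced, 8 no longer called and 0 lower only against anagen skin. Without the 3 mice with low sheath means, 6 genes had a higher difference, 4 lower genes kept a smaller difference, 1 lower gene was no longer called, 7 had opposite calls, and 1 higher and 24 lower were called only against anagen skin. Without the mice whose male tails read low in Y-linked genes, 1 gene had a higher difference, 1 lower gene was reduced, 2 had opposite calls, and 4 were higher and 3 lower by sex. The cause of these shifts was not tested.

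Leaving out 1 mouse at a time gave 575 to 657 higher and 288 to 343 lower, 114 to 160 changes downward and 0 to 3 upward. Of genes called against non-anagen skin, 53 to 90 higher and 0 to 1 lower were no longer called, 31 to 47 and 0 to 2 were reduced, 454 to 486 and 237 to 272 had no called change, and 0 to 4 had opposite calls. Lower only against anagen skin were 2 to 12. Signs turned without the 3 mice with low sheath means for Krt71 (-0.59), Krtap14 (-0.45), Krtap19-1 (-0.31), Krt25 (-0.26), Krtap15 (-0.21) and Gprc5d (-0.21), with the same median for Krtap14 (-0.07), Krt10 (-0.05) and Msx2 (-0.02), with quantile normalization for Msx2 (-0.08) and Krtap14 (-0.07), and without the low Y-linked readings for Krtap14 (-0.20) and Alas2 (0.01). Readings near the arrays' floor limit folds of low genes.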
